A study of Mus musculus with 6 samples.

Results

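A set of 5 miRNA names of red and white blood cells was followed in small RNA libraries of GC-1spg cells, a mouse line used as a model of spermatogonia. They were mmu-miR-486a-5p, mmu-miR-486b-5p, mmu-miR-451a, mmu-miR-144-3p and mmu-miR-142a-3p, written without the mouse prefix below. They were taken by name from the deposited table, where all 5 were among 1224 names. Of the 6 libraries, 3 came from cells transfected with METTL3 siRNA (si-METTL3) and 3 from cells given a control siRNA (si-NC). All were grown with 10% fetal bovine serum and collected 48 h after transfection. METTL3 is the catalytic subunit of the enzyme complex that writes N6-methyladenosine into RNA, a mark that elsewhere has been tied to how primary miRNA transcripts are cut. The labels give a single siRNA sequence for both groups, and counts of miRNAs cannot show the level of Mettl3 mRNA, so the groups are those of the sample titles. No label tells whether libraries of a group were grown as separate cultures. The p-values then cover only the spread among these libraries, and that spread could be technical.

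The miRNAs of this set are known from blood. miR-144 and miR-451a are made from a single primary transcript that the factor GATA1 switches on in red cell precursors, and miR-486, from an intron of the ankyrin gene Ank1, is abundant in red cells and in muscle. Most miRNAs are cut from a hairpin by Dicer. The hairpin of miR-451a is too short for Dicer and is instead cut by the slicer activity of the Argonaute protein AGO2 and then trimmed at its 3′ end. miR-142 is made throughout the white blood cell lineages and is often used as a mark of them.

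The mature sequences are shown with the seed, bases 2 to 8, in capitals, because the seed decides which target sites a miRNA pairs with. They are RefSeq sequences on GRCm38.p6, written 5′ to 3′, and each equals the sequence in the deposited table.
miR-451a: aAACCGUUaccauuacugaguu
miR-144-3p: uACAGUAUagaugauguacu
miR-142a-3p: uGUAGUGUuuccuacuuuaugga
miR-142a-5p: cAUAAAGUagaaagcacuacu
No other mouse name in the table had the seed of miR-451a, miR-144-3p, miR-142a-3p or miR-142a-5p. miR-486a-5p and miR-486b-5p share their whole sequence of 22 bases and therefore a seed, which no other mouse name had.

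The hairpins show how miR-451a differs from its partner, with the mature miRNA in capitals.
Mir451a: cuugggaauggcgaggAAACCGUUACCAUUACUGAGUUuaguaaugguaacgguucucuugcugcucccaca
Mir144: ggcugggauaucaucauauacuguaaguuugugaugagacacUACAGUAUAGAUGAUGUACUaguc
miR-451a takes positions 17 to 38 of a hairpin of 72 bases and so reaches past its middle, while miR-144-3p takes positions 43 to 62 of 66 and lies wholly in the 3′ arm. Mir144 lies on chromosome 11, 78073005 to 78073070, plus strand, and Mir451a on chromosome 11, 78073170 to 78073241, plus strand, 99 bases further on. Neither overlaps another gene of its strand in GENCODE M21 (GRCm38), and Mir451b lies antisense to Mir451a. Mir142 is on chromosome 11, 87756864 to 87756927, plus strand, in an intron of Mir142hg, with Mir142b antisense to it. Mir486 is on chromosome 8, 23142555 to 23142682, plus strand, in an intron of Ank1, with Mir3107 antisense to it.

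Library totals ran from 4473804 to 6132668 reads in si-METTL3 and from 3998058 to 4052812 in si-NC. At these depths 3 reads stand for 0.489 to 0.671 TPM in si-METTL3 and 0.74 to 0.75 TPM in si-NC. TPM here is reads scaled to a common library total (CPM), with no term for length. The libraries also differed in invertebrate names that mouse cells do not make. bantam-y had 252, 139 and 116 reads in si-METTL3 1 to 3, against 1, 52 and 136 in si-NC 1 to 3. miR-750-y had 321 reads in si-METTL3 1 and 0 in si-METTL3 2 and 3, against 0 in si-NC 1, 83 in si-NC 2 and 177 in si-NC 3. By these names the libraries form 3 sets, of which the first is si-NC 1 alone, the second joins si-METTL3 1 to both other si-NC libraries, and the last holds si-METTL3 2 and 3. As for the labelled cells, 14 of 14 listed germ cell miRNAs were in the table, led by miR-222-3p at 1175 ± 72.4 TPM in si-METTL3 and 1491 ± 26.5 TPM in si-NC (SD, n = 3 each). miR-221-3p and miR-34c-5p came next, at 999 and 469 TPM in si-METTL3, against 1238 and 412 TPM in si-NC. Levels in this list were uneven. miR-449a-5p was the lowest, at 1.62 TPM in si-METTL3 and 2.33 TPM in si-NC. miR-547-3p stood at 1.66 TPM in si-METTL3 and 3.74 TPM in si-NC. All 7 listed erythroid names were in the table as well, so presence there does not set the germ cell names apart.

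The miR-486 5p arm was the member that changed, and it was higher in si-METTL3. miR-486a-5p, the main arm of its hairpin, had 573, 448 and 422 reads in si-METTL3 1 to 3, against 275, 275 and 324 reads in si-NC 1 to 3. In TPM these were 93.4, 100.1 and 92.4 in si-METTL3, against 67.9, 68.8 and 80.9 in si-NC. Every si-METTL3 library lay above every si-NC library, and si-NC 3 was the nearest to si-METTL3. The means were 95.3 ± 4.20 TPM in si-METTL3 and 72.5 ± 7.30 TPM in si-NC (SD, n = 3 each). On library totals alone, the scaling of these means, the log2 fold was 0.39. With the TMM scaling of edgeR the difference was 1.38-fold, or 0.46 ± 0.08 (SE) on the log2 scale. Its adjusted p was 1.2e-04 by the two-sided quasi-likelihood test of edgeR, with Benjamini-Hochberg adjustment over 622 names. In bulk RNA, a change in the number of cells that make a miRNA and a change per cell cannot be told apart.

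miR-486b-5p gave the same result because it holds the same reads. It had 572, 450 and 422 reads in si-METTL3 1 to 3, against 275, 277 and 323 in si-NC 1 to 3. The counts under both names were equal in 2 libraries and never differed by more than 2 reads. Its log2 fold was likewise 0.46 ± 0.08 (adjusted p = 1.2e-04, edgeR), so both names stand for a single measurement and cannot say which hairpin the reads came from. In the authors' deposited table miR-486a-5p had a log2 fold change of 0.39 with an FDR of 2.3e-06, and miR-486b-5p also 0.39 with an FDR of 2.1e-06. Of all 1224 names there, 13.7% had an FDR under 0.05. None of the 5 members was on the authors' list of 50 differently expressed names, whose smallest absolute log2 fold change was 1.01.

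The rise of miR-486-5p is to be read against a library in which many names moved. Of the 622 names tested, 29.3% passed the threshold and 17.7% passed as higher. Of the 5 members, 2 passed, both higher and both from the same reads, and 3 did not pass. After TMM scaling the groups did not overlap in 41.2% of the names tested, and among the 5 members in the same 2. When a term for these 3 sets was added to the model, the comparison rests on the single set that holds both groups, which is si-METTL3 1 with si-NC 2 and 3. The log2 fold of miR-486a-5p was then 0.37 with an adjusted p of 0.0284 (edgeR). The part of these sets in the result was not tested further.

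**Figure D1:**
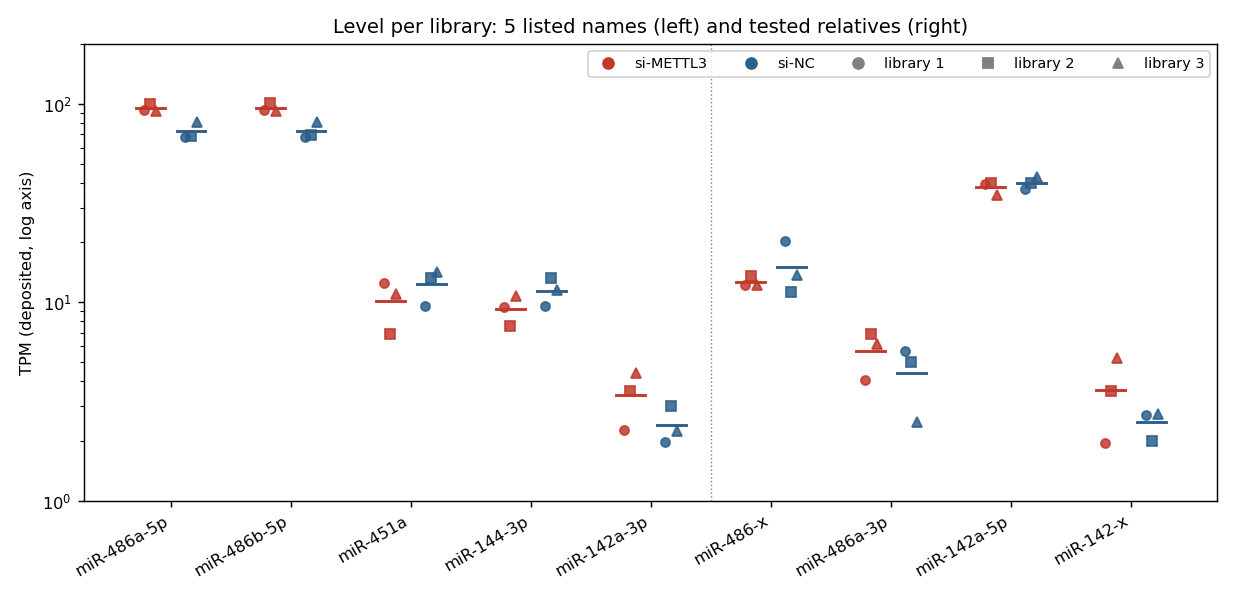
Deposited TPM on a log axis for each library, for the 5 listed names on the left and for tested names of the same miRNA numbers on the right; lines are group means and symbols are libraries 1 to 3. The si-METTL3 libraries of miR-486a-5p sit between 92.4 and 100.1 TPM, above the si-NC libraries at 67.9 to 80.9 TPM, and miR-486b-5p repeats this; the groups of miR-451a, miR-144-3p and miR-142a-3p overlap.

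The other arm of miR-486 was rare. miR-486a-3p, the strand usually discarded, had 25, 31 and 28 reads in si-METTL3 1 to 3, against 23, 20 and 10 in si-NC 1 to 3. The groups overlapped, and its log2 fold of 0.41 ± 0.32 did not pass (adjusted p = 0.375, edgeR). miR-486b-3p had 1, 1 and 3 reads in si-METTL3 1 to 3, against 4, 3 and 2 in si-NC 1 to 3, too few for a test. Reads of miR-486a-5p may come from either miR-486 hairpin, so setting miR-486a-3p against them does not give an arm ratio of a single hairpin. The ratio of miR-486a-3p to miR-486a-5p averaged 0.0597 ± 0.0140 in si-METTL3 and 0.0624 ± 0.0279 in si-NC (SD, n = 3 each). It did not differ beyond the spread of the libraries (log2 difference 0.03, exact two-sided permutation p = 1.0).

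A longer form of the same arm did not pass the test. The table lists miR-486-x, a name that has no mouse prefix there and whose ending -x is not explained. Its sequence is that of miR-486a-5p with 2 further bases at the 3′ end. It had 75, 61 and 56 reads in si-METTL3 1 to 3, against 82, 45 and 55 in si-NC 1 to 3. si-NC 1 was the highest library at 20.2 TPM, and the other 5 lay between 11.3 and 13.7 TPM. Its log2 fold was -0.18 ± 0.20 (adjusted p = 0.557, edgeR), and 0.10 when si-NC 1 was left out.

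Relative to miR-486a-5p, the longer form was less frequent in every si-METTL3 library. The ratio of miR-486-x to miR-486a-5p was 0.131, 0.136 and 0.133 in si-METTL3 1 to 3, against 0.298, 0.164 and 0.170 in si-NC 1 to 3. The si-METTL3 libraries were nearly equal, and si-NC 1 stood apart from the other si-NC libraries. The log2 difference of the ratio was -0.60 (p = 0.1 by exact two-sided permutation, as low as 3 against 3 libraries allow, adjusted p = 0.5 over 5 ratios). Without si-NC 1 it was -0.32. The denominator, miR-486a-5p, was itself higher in si-METTL3, so this ratio is not independent of that rise. A rarer form with 3 further bases, miR-486-z, had 6, 7 and 8 reads in si-METTL3 1 to 3, against 0, 6 and 5 in si-NC 1 to 3. With miR-486-x and miR-486-z added to miR-486a-5p, the log2 fold of the sum was 0.39 with an adjusted p of 5.4e-04 (edgeR).

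miR-451a and miR-144-3p, the red cell pair, were both low, and neither passed the test. miR-451a, known for its part in red cell maturation, had 77, 31 and 50 reads in si-METTL3 1 to 3, against 39, 53 and 57 in si-NC 1 to 3. In TPM these were 12.6, 6.93 and 10.9 in si-METTL3, against 9.62, 13.3 and 14.2 in si-NC. The groups overlapped, with si-METTL3 2 the lowest library and si-NC 3 the highest. The log2 fold was -0.20 ± 0.22 (adjusted p = 0.545, edgeR). It was -0.0073 without si-METTL3 2. From the summed reads, 158 in si-METTL3 and 149 in si-NC, the ratio over library totals was 0.842, with an exact 95% binomial interval of 0.669 to 1.06 that covers counting error only.

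miR-144-3p, which in red cells is known to act on the antioxidant regulator gene Nfe2l2, had 58, 34 and 49 reads in si-METTL3 1 to 3, against 39, 53 and 46 in si-NC 1 to 3. In TPM these were 9.46, 7.60 and 10.7 in si-METTL3, against 9.62, 13.3 and 11.5 in si-NC. The groups overlapped, and again si-METTL3 2 was the lowest library. The log2 fold was -0.24 ± 0.20 (adjusted p = 0.434, edgeR). The ratio of the summed reads over library totals was 0.812, with an exact 95% binomial interval of 0.637 to 1.03.

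miR-144-3p and miR-451a kept to nearly equal counts in most libraries. The ratio of miR-144-3p to miR-451a was 0.753, 1.10 and 0.980 in si-METTL3 1 to 3, against 1.00, 1.00 and 0.807 in si-NC 1 to 3. It averaged 0.943 ± 0.175 in si-METTL3 and 0.936 ± 0.111 in si-NC (SD, n = 3 each), with no difference beyond the spread of the libraries (exact two-sided permutation p = 1.0). The miRNA that needs Dicer and the one that does not thus stood at about the same number of reads in both groups, although recovery in library preparation can differ between sequences.

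**Figure D2:**
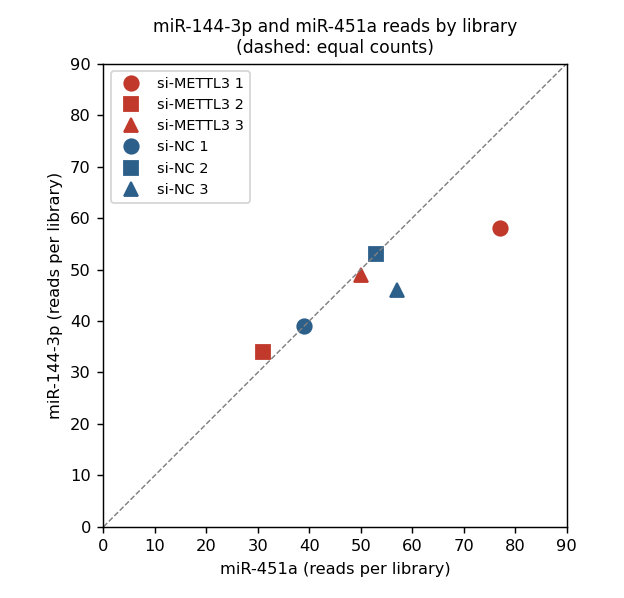
Reads of miR-144-3p against reads of miR-451a in each library, with a dashed line of equal counts. si-NC 1 and si-NC 2 lie on the line at 39 and 53 reads of each, and si-METTL3 1, at 58 reads of miR-144-3p and 77 of miR-451a, lies farthest below it.

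The miR-486 arm was also set against each miRNA of the red cell pair within each library. The ratio of miR-486a-5p to miR-451a, chosen after the values were seen, was 7.44, 14.5 and 8.44 in si-METTL3 1 to 3, against 7.05, 5.19 and 5.68 in si-NC 1 to 3. The ratio to miR-144-3p, likewise chosen, was 9.88, 13.2 and 8.61 in si-METTL3 1 to 3, against 7.05, 5.19 and 7.04 in si-NC 1 to 3. Both were higher in every si-METTL3 library than in any si-NC library. The numerator of both, miR-486a-5p, was itself higher in si-METTL3. These ratios are thus not independent of that rise or of each other, and are no separate test of it. The log2 difference was 0.71 for both (exact two-sided permutation p = 0.1, the lowest possible here, adjusted p = 0.1 over 2 ratios). Without si-METTL3 2, the highest library in both, it was 0.42 for the ratio to miR-451a and 0.54 for the ratio to miR-144-3p.

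The other forms of these hairpins had few reads. miR-144-5p, the other arm, had 3, 2 and 2 reads in si-METTL3 1 to 3, against 1, 2 and 0 in si-NC 1 to 3. miR-144-y, which matches the hairpin over 20 bases and ends in 2 bases that do not, had 10, 12 and 8 reads in si-METTL3 1 to 3, against 8, 3 and 3 in si-NC 1 to 3. A longer form of miR-451a, miR-451-x, is shown because it runs 3 bases further into the hairpin, here in capitals, where the mature 3′ end is normally made by trimming.
miR-451-x: aaaccgttaccattactgagttTAG
It had 5, 1 and 6 reads in si-METTL3 1 to 3, against 2, 9 and 7 in si-NC 1 to 3. Summed over libraries this was 7.59% of the miR-451a reads in si-METTL3 and 12.1% in si-NC, from 12 and 18 reads. The ratio of those sums over library totals was 0.530, with an exact 95% binomial interval of 0.233 to 1.16.

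miR-142a-3p was the rarest member, and the more abundant arm of its hairpin was the 5p arm. miR-142a-3p had 14, 16 and 20 reads in si-METTL3 1 to 3, against 8, 12 and 9 in si-NC 1 to 3. In TPM these were 2.28, 3.58 and 4.38 in si-METTL3, against 1.97, 3.00 and 2.25 in si-NC. The groups overlapped and the log2 fold was 0.53 ± 0.39 (adjusted p = 0.347, edgeR). Once the 3 sets were in the model it was -0.15 (adjusted p = 0.891), so no direction can be given.

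miR-142a-5p had 243, 179 and 158 reads in si-METTL3 1 to 3, against 150, 159 and 171 in si-NC 1 to 3. Its means were 38.1 ± 3.02 TPM in si-METTL3 and 39.8 ± 2.85 TPM in si-NC (SD, n = 3 each), a log2 fold of 0.003 ± 0.11 (adjusted p = 0.995, edgeR). There were 17.4, 11.2 and 7.90 reads of the 5p arm for each read of the 3p arm in si-METTL3 1 to 3, against 18.8, 13.2 and 19.0 in si-NC 1 to 3. The ratio overlapped between the groups (log2 difference -0.54, exact two-sided permutation p = 0.2, adjusted p = 0.5).

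A shifted form of the 5p arm, miR-142-x, is shown because it starts 3 bases earlier in the hairpin, in capitals, which gives it another seed than miR-142a-5p.
miR-142-x: ACCcataaagtagaaagcacta
It had 12, 16 and 24 reads in si-METTL3 1 to 3, against 11, 8 and 11 in si-NC 1 to 3. The log2 fold of 0.54 ± 0.41 did not pass (adjusted p = 0.357, edgeR), nor did its ratio to miR-142a-5p differ beyond the spread (log2 difference 0.50, exact two-sided permutation p = 0.5). miR-142-y, which starts 1 base later than miR-142a-3p and ends in 2 bases off the hairpin, had 1, 2 and 1 reads in si-METTL3 1 to 3 and none in si-NC.

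**Figure D3:**
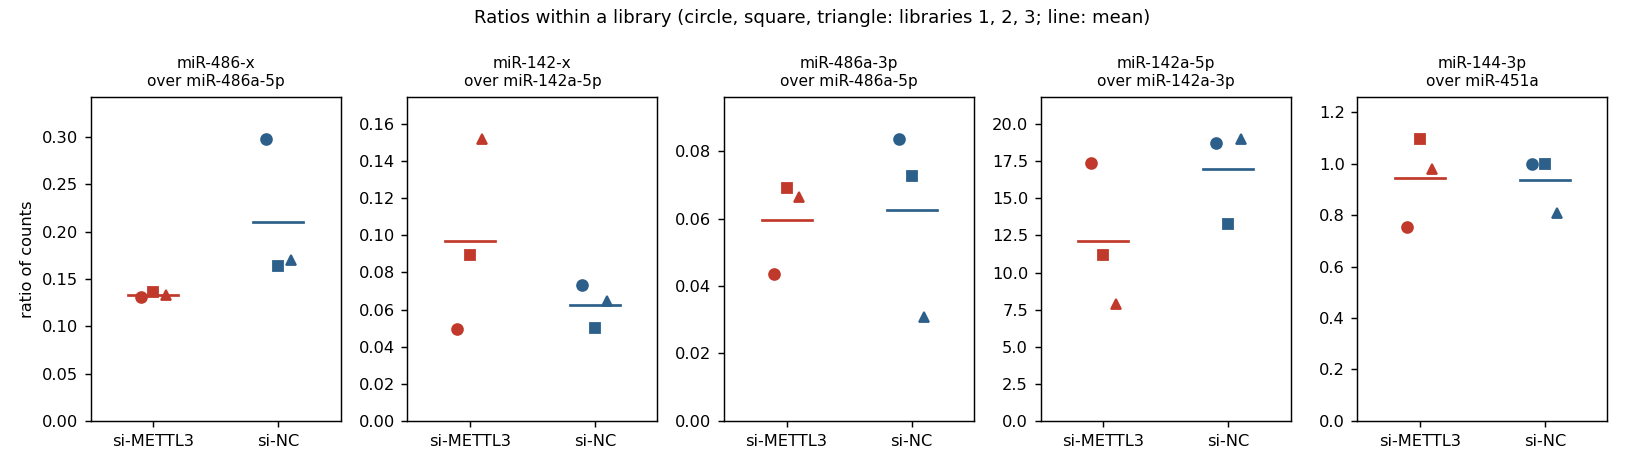
Ratios of counts within each library for the 5 ratios between arms, forms or the red cell pair that were tested; points are libraries and lines are group means. Of these 5, the ratio of miR-486-x to miR-486a-5p alone separates the groups, at 0.131 to 0.136 in si-METTL3 and 0.164 to 0.298 in si-NC.

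By mean level over the 6 libraries the members were ordered miR-486b-5p and miR-486a-5p, at ranks 147 and 148 of 679 mouse names, then miR-451a at 280, miR-144-3p at 287 and miR-142a-3p at 385. miR-451a and miR-144-3p overlapped in range and cannot be ordered. Of the white blood cell names, miR-142a-5p stood above miR-451a and miR-144-3p, and miR-223-3p, a miRNA of myeloid cells, stood below them. miR-223-3p had 3, 2 and 5 reads in si-METTL3 1 to 3, against 1, 4 and 3 in si-NC 1 to 3, too few for a test. Its means were 0.677 ± 0.362 TPM in si-METTL3 and 0.666 ± 0.384 TPM in si-NC (SD, n = 3 each). miR-150-5p, a miRNA of mature lymphocytes, stood at 5.11 ± 0.844 TPM in si-METTL3 and 7.06 ± 1.92 TPM in si-NC, with a log2 fold of -0.38 ± 0.27 (adjusted p = 0.320, edgeR). The reads do not say which cells, or which mammal, they came from, since these mature sequences are widely shared among mammals and the medium held serum; their source was not tested.

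The counts of lists are to be set beside the background of 29.3% of all names past the threshold, 17.7% higher and 11.6% lower. Of 7 erythroid names, all listed, 5 were tested, 2 rose (the miR-486 5p copies) and none fell. With the miR-486-5p sequence counted once, the median log2 fold of the 4 tested sequences was 0.11, against 0.0054 over all names tested. Counting each sequence once, their summed level was 120.2 to 122 TPM in si-METTL3 and 94.0 to 109.7 TPM in si-NC, and miR-486-5p made up most of it. Of 10 names of white blood cells and platelets 9 were listed and 7 tested, of which 1 rose, 1 fell and 5 did not pass (median log2 fold -0.0021). These 2 of 7 are close to the background share. Their summed level was 1399 to 1458 TPM in si-METTL3 and 1515 to 1566 TPM in si-NC.

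The most abundant names of that white blood cell list are made in many other cells. For miR-181a-5p, a regulator of lymphocyte signalling, the log2 fold was -0.0042 ± 0.05 (adjusted p = 0.969), and for miR-342-3p it was -0.0021 ± 0.05 (adjusted p = 0.989, edgeR). The calls in this list were miR-155-5p, an inflammatory miRNA, lower by edgeR at -0.26 ± 0.05 on the log2 scale (adjusted p = 6.1e-04), and, higher, the NF-kB brake miR-146a-5p at 0.31 ± 0.08 (adjusted p = 0.00681). Among 6 miRNAs abundant in red cells and also widely expressed, 2 rose, 1 fell and 3 did not pass (median log2 fold -0.07). The log2 fold of let-7b-5p was 0.12 ± 0.04 (adjusted p = 0.0348), and that of miR-92a-3p was -0.14 ± 0.04 (adjusted p = 0.0106). For miR-25-3p edgeR gave -0.07 ± 0.04 on the log2 scale, which did not pass (adjusted p = 0.201).

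**Figure D4:**
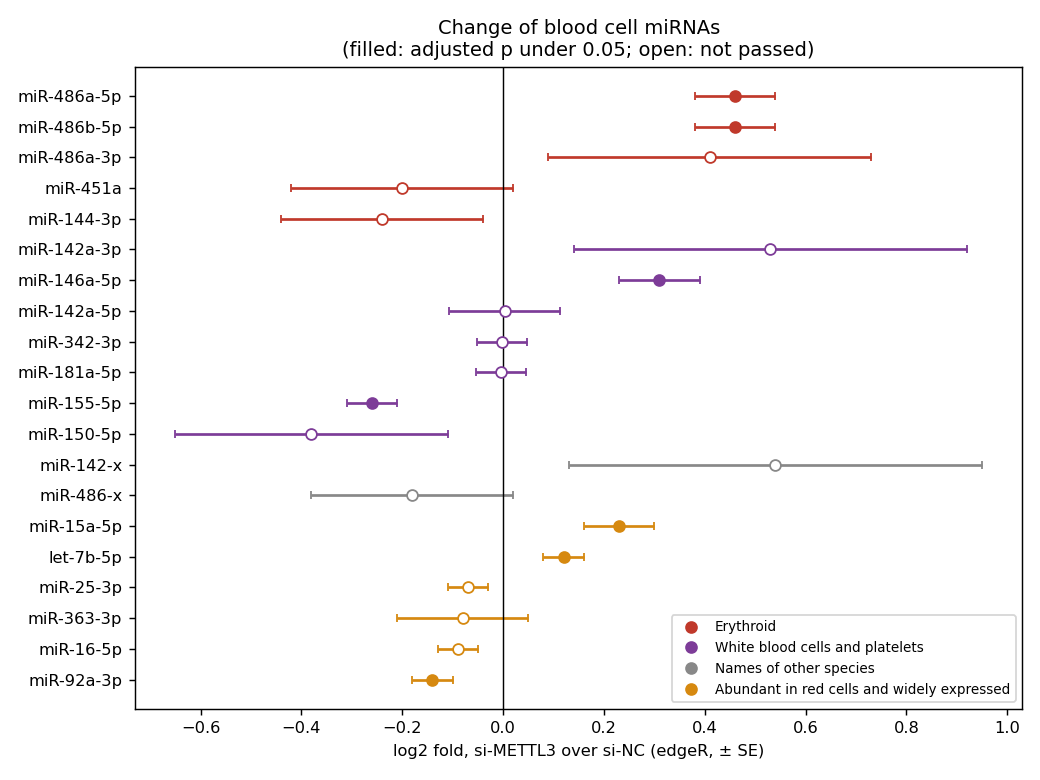
Log2 fold of si-METTL3 over si-NC from edgeR with its SE, for the tested names of the blood lists and tested names of the same numbers with no mouse prefix. The latter are labelled names of other species, but their organism is not known. Filled points passed an adjusted p of 0.05. The miR-486 5p copies stand at 0.46, and miR-451a and miR-144-3p at -0.20 and -0.24 with open points.

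Lists of other tissues were set beside the members, since miR-486 is also a muscle miRNA. Of 7 muscle names 4 were listed and 2 tested. miR-206-3p was lower, with a log2 fold of -0.75 ± 0.09 (adjusted p = 7.5e-07, edgeR), opposite in sign to miR-486a-5p. miR-133a-3p, another muscle miRNA, was too rare for the test, with 12, 3 and 4 reads in si-METTL3 1 to 3, against 2, 1 and 1 in si-NC 1 to 3. Every si-METTL3 library was above every si-NC library, the same direction as miR-486a-5p. The nearest were si-METTL3 2 with 3 reads (0.671 TPM) and si-NC 1 with 2 reads (0.494 TPM), so few reads part the groups. Of the 19 reads in si-METTL3, 12 were in si-METTL3 1. Among the 622 names tested, 23.3% lay wholly higher in si-METTL3. The ratio of sums over library totals was 3.77 (exact 95% binomial interval 1.25 to 15.3, counting error only). miR-1a-3p, the main muscle miRNA, stood at 2.05 ± 0.667 TPM in si-METTL3 and 2.91 ± 0.594 TPM in si-NC (SD, n = 3 each). The summed level of the muscle list was 47.8 to 64.2 TPM in si-METTL3 and 92.0 to 96.4 TPM in si-NC. Most of this sum was miR-206-3p, at a mean of 51.0 TPM in si-METTL3 and 90.7 TPM in si-NC. Of 2 endothelial names neither passed. The endothelial miR-126a-3p stood at 45.2 ± 5.96 TPM in si-METTL3 and 53.3 ± 4.29 TPM in si-NC, and miR-126a-5p at 26.6 ± 1.08 TPM in si-METTL3 and 31.8 ± 7.05 TPM in si-NC. The endothelial sum was 64.6 to 76.3 TPM in si-METTL3 and 78.5 to 97.8 TPM in si-NC.

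Of 5 liver and serum names 3 were listed and 2 tested, of which 1 fell. For this name, miR-192-5p, edgeR gave a log2 fold of -0.13 ± 0.05 and an adjusted p of 0.0469. miR-194-5p did not pass (log2 fold -0.11 ± 0.06, adjusted p = 0.204). The liver miRNA miR-122-5p stood at 2.15 ± 1.36 TPM in si-METTL3 and 2.65 ± 1.12 TPM in si-NC. The summed level of the liver and serum list was 1692 to 1760 TPM in si-METTL3 and 1824 to 2078 TPM in si-NC. Most of this sum was miR-192-5p, at a mean of 1465 TPM in si-METTL3 and 1675 TPM in si-NC. Of the 13 germ cell names tested 2 rose, 4 fell and 7 did not pass, with a sum of 2709 to 2904 TPM in si-METTL3 and 3304 to 3335 TPM in si-NC. Most of that sum was miR-222-3p and miR-221-3p, which were among the names that fell, while miR-34c-5p rose. Of 2 testis somatic names 1, miR-202-5p, was tested and did not pass, and their sum was 16.8 to 20.6 TPM in si-METTL3 and 18.3 to 20.98 TPM in si-NC. The part of these lists in the rise of miR-486-5p was not tested.

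Across the 6 libraries, the mouse names closest in pattern to miR-486a-5p were miR-8114 (Pearson r of log2 CPM 0.996), miR-24-2-5p (0.994) and miR-339-3p (0.981), out of 408 compared. Of these miR-339-3p passed the test, with a log2 fold of 0.40 ± 0.11 (adjusted p = 0.00693, edgeR). By edgeR miR-8114, at 0.28 ± 0.17 (adjusted p = 0.254), and miR-24-2-5p, at 0.10 ± 0.05 (adjusted p = 0.117), did not pass. The log2 fold of miR-486a-5p was 0.46, so a high r does not mean a change of like size. Closest to miR-451a were miR-324-3p (0.904), miR-598-3p (0.839) and miR-18a-3p (0.836). Closest to miR-144-3p were miR-466a-3p, miR-466b-3p and miR-466c-3p, at 0.927 each, which held the same counts in every library. Closest to miR-142a-3p were miR-93-5p (0.978), miR-17-5p (0.918) and miR-7a-5p (0.916). These are descriptions over 6 libraries, chosen as the highest of 408 or 409 values, and they carry no p.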

How the data were processed

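Small RNA was sequenced in 6 libraries, 3 si-METTL3 and 3 si-NC. The tools named are RSEM, StringTie, Bowtie2 and fastp, with mm10, per the submitters' processing notes, which state no role or version. The naming and counting of miRNAs is not stated. Per the file headers, the authors deposited a count of reads per miRNA name and a TPM per library. Each TPM equals its count over a library total, with 0 written as 0.01, and those totals were used as library sizes. The authors' log2 fold change, p-value and FDR were also deposited, with no test named. The 2 emptied lines of the table are not analysed here.

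Of the 1224 names, the 622 that passed the filter on low counts were tested on their counts with edgeR 4.0.16 in R 4.3.3 (quasi-likelihood, robust, TMM, filterByExpr, no block, Benjamini-Hochberg at 0.05), after a check on simulated data. All 5 members passed the filter on low counts. TMM raises log2 folds by 0.067 over library totals alone, and a change shared by all miRNAs would not show. Ratios within a library were compared by exact permutation of mean log2 ratios where both names averaged at least 10 reads. Alternatives were each library left out in turn, a replicate block, other scalings, filters and library sizes, mouse names only, DESeq2 1.42.0, edgeR's exact test, limma 3.58.1 on log2 of TPM with a pseudocount of 0.5, 1 or 5, and summed variants. The term for sets of libraries was chosen after seeing the data. Names given are the members, every name of the same miRNA numbers, up to 3 of the most abundant names of a list, and the 3 closest in pattern. miR-223-3p, miR-150-5p, miR-146a-5p, miR-449a-5p and miR-547-3p were taken from their lists after their values were seen. The ratios of miR-486a-5p to miR-451a and miR-144-3p were likewise chosen after their values were seen. The members and lists were chosen with earlier results of these data known.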

Additional observations from a re-analysis of the deposited data

How the results depend on the processing

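miR-486a-5p and miR-486b-5p stayed higher and past the threshold in 20 of 20 alternatives, with log2 folds of 0.37 to 0.53 for both and adjusted p up to 0.0284 and 0.031. miR-451a (log2 fold -0.39 to -0.0073) and miR-144-3p (-0.36 to -0.08) passed in none of 20. Their log2 folds stayed negative, but that of miR-451a was only -0.0073 without si-METTL3 2, so the sign does not show a decrease. miR-142a-3p passed in none of 19, since the filter of 10 CPM removed it, and was reversed, at -0.15, with the term for sets of libraries. The count of names past the threshold was 182, and 122 to 190 in the alternatives (153 to 171 without a library). The replicate numbers did not pair the libraries (correlations of deviations between libraries of a number -0.359, -0.0813 and -0.285), and under a replicate block 176 names passed, miR-486a-5p among them at a log2 fold of 0.46 (adjusted p = 1.3e-04). Without each library in turn, the log2 difference of the ratio of miR-486a-3p to miR-486a-5p ran from -0.41 to 0.3 and that of miR-144-3p to miR-451a from -0.12 to 0.16, so neither has a stable sign. That of miR-486-x to miR-486a-5p ran from -0.76 to -0.32. Those of miR-486a-5p to miR-451a and to miR-144-3p ran from 0.42 to 0.9 and from 0.54 to 0.84, leave-one-out values added after seeing the data. miR-142a-3p had 8 to 20 reads per library, which limits its precision.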
